A study of Mus musculus with 12 samples.

Results

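The genes followed here belong to the p53 pathway and to cellular senescence, and were measured in gonadal white adipose tissue (GWAT) of the mouse. They are Trp53, Mdm2, Cdkn1a, Cdkn2a, Cdkn2b, Ccng1, Trp53inp1, Sesn2 and Gdf15. They were taken by symbol from the table of estimated counts, so 9 of 55281 annotated genes are described. All 9 passed the filter on low counts, as did 18427 genes in all. The question was how these genes differ with the loss of HOIP (gene Rnf31), the catalytic subunit of the linear ubiquitin chain assembly complex, in adipocytes, and with a high-fat diet.

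Bulk RNA sequencing covered 4 groups of male mice, each with 3 libraries. All mice carried Hoip fl/fl alleles. WT controls were AdipoQ.Cre-, and HoipA-KO mice were AdipoQ.Cre+, which deletes Hoip in mature adipocytes only, since the adiponectin promoter drives the Cre. From an age of 6 weeks the mice received either a control diet (CD) with 14% fat or a high-fat diet (HFD) with 60% fat, for 16 weeks, and GWAT was taken at an age of 22 to 24 weeks. Each library held RNA pooled from 3 mice, so the spread given is between pools. The libraries held 30513500 to 60540260 estimated counts, and 3 counts, the floor of detection used, equal 0.0533 to 0.0996 CPM (counts scaled to library size and normalised by the trimmed mean of M-values over the 12 libraries). Each of the 9 genes lay above this floor in all libraries. The level of Rnf31 over the whole gene ranged from 12.8 to 21.2 CPM in WT CD, 18.2 to 20 CPM in WT HFD, 17.8 to 21.8 CPM in HoipA-KO CD and 18.8 to 22.5 CPM in HoipA-KO HFD. Counts of the whole gene in whole tissue therefore do not check the genotype labels.

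p53, encoded by Trp53, is a transcription factor that is held at a low level by the ubiquitin ligase Mdm2, itself a p53 target. Stabilised p53 raises Cdkn1a (p21), an inhibitor of cyclin-dependent kinases that stops the cell cycle, together with Ccng1 (cyclin G1), Trp53inp1 and Sesn2, which act in p53 feedback, cell death and autophagy, and the response to nutrient and oxidative stress. Cdkn2a encodes p16INK4a and, in another reading frame, p19ARF, an inhibitor of Mdm2. Its neighbour Cdkn2b encodes p15INK4b, and both p15 and p16 inhibit Cdk4 and Cdk6. Gdf15 is a secreted stress cytokine that is induced by p53 and by the integrated stress response. In adipose tissue p53 and p21 are known from obese fat, where senescent cells and macrophages also accumulate.

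Before any values, the start regions show what sets some of these genes apart in sequence. The RefSeq windows on GRCm38.p6, from 250 bases before to 50 after each annotated start, held 8 of the 9 genes in 11 windows. Trp53inp1 was not among them. These windows were searched for the p53 response element, which is built of 2 half-sites of 10 bases, each with purines, a C, a pair of A or T bases, a G and pyrimidines. The half-site reads the same on both strands, so each match covers both. A pair of half-sites with a spacer of at most 13 bases was present in 24 of 32851 windows (0.0731%) and, among the 9 genes, only in the window of the first Cdkn1a start. Single half-sites were present in 2745 of all windows (8.36%), and among the genes outside the Cdkn1a pair in Mdm2, Ccng1 and Trp53. The 4 stretches are printed from the strand of the gene, all before the gene's first annotated exon, with matches to the half-site in capitals.
Cdkn1a: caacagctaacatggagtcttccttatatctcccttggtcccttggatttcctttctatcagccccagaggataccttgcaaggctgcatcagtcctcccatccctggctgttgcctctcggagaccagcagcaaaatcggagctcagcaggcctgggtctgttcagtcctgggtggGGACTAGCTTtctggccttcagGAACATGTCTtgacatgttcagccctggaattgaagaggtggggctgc
Ccng1: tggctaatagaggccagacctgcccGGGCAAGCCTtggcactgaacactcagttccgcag
Mdm2: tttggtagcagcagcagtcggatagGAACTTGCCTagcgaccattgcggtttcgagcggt
Trp53: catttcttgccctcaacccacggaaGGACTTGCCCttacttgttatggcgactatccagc

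The Cdkn1a stretch lies at chr17:29090729-29090975 on the plus strand, and its pair of half-sites at chr17:29090906-29090937, with 12 bases between them and 41 bases between the pair and the RefSeq start. A second RefSeq start of Cdkn1a lies 2831 bases beyond the pair, and its window held no match. The second half-site of Cdkn1a runs directly into bases that differ from a further half-site at 1 letter, so that 19 of 20 letters fit 2 adjoining half-sites at chr17:29090928-29090947. The same was true of Ccng1 (chr11:40755437-40755496, minus strand), where 19 of 20 letters fit at chr11:40755462-40755481. Only 29 of 32851 windows (0.0883%) came as close. The closest 20 letters in the printed Mdm2 (chr10:117710910-117710969, minus strand) and Trp53 (chr11:69580259-69580318, plus strand) windows matched at 15 and 17 letters, which 76.6% and 6.29% of all windows reached. No half-site was present in the windows of Cdkn2a, Cdkn2b, Sesn2 and Gdf15. These matches are letters in a window of this length and say nothing of binding in GWAT.

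Some libraries stood apart from their groups. Pearson's r between libraries of 1 group, over all tested genes, was 0.971 to 0.993 in 3 groups, but in WT CD it was 0.907 for replicate 1 with replicate 2, and 0.785 and 0.794 for these with replicate 3. In WT CD replicate 3, 4340 genes exceeded 8 times their level in every other library and took 19.9% of its counts. In WT CD replicate 2, which stays in the tests, 396 genes did so and took 6.84% of its counts. The 6 testis and sperm markers, led by Prm2, summed to 8221 CPM there, to 332 CPM in WT CD replicate 2, to 16.9 CPM in WT CD replicate 1 and to at most 2.7 CPM in the other 9 libraries. The epididymal markers, of which 9 of 10 were in the table and Crisp1 was the most abundant, summed to 15810 CPM in WT CD replicate 2, 1312 CPM in HoipA-KO HFD replicate 1 and 0.133 to 171 CPM elsewhere. The tests below use 11 libraries without WT CD replicate 3, as the deposited comparisons of the authors do, and the fit of all 12 is given beside a call or count that it changes. With these 11 libraries all 6 testis and sperm markers were still called lower in HoipA-KO on CD and under HFD in WT. Beside them 18.8% and 5.47% of all genes were lower.

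On CD, Trp53, Cdkn1a, Cdkn2a, Mdm2 and Gdf15 were higher in HoipA-KO GWAT than in WT, between 1.95-fold for Trp53 and 11.5-fold for Gdf15, while Sesn2 was 2.02-fold lower. Thus 5 of 9 genes rose and 1 fell (quasi-likelihood test of edgeR, p adjusted after Benjamini and Hochberg across all tested genes, threshold 0.05), beside 18.9% of all 18427 tested genes that rose and 18.8% that fell, 37.7% in either direction. Ccng1, Cdkn2b and Trp53inp1 did not pass the test. With all 12 libraries, 3 genes rose (Trp53, Cdkn1a and Gdf15) and Sesn2 fell, against 34.7% of 18074 tested genes in either direction. The levels of these 4 genes did not overlap between the 3 HoipA-KO and the 3 WT libraries, which held for 20.1% of tested genes in the higher and 19.3% in the lower direction.

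Under HFD, Ccng1 and Sesn2 were lower in HoipA-KO GWAT, 1.97-fold and 2.31-fold, and no member of the 9 was called higher. These 2 of 9 genes stand beside 11.8% of all genes called, 4.2% higher and 7.62% lower. With 12 libraries only Sesn2 was called, beside 2.78% of all genes called in either direction and 2.25% lower. By levels alone, Trp53, Cdkn2a and Gdf15 lay higher in every HoipA-KO library than in every WT library (20.9% of all tested genes over 12 libraries), and Cdkn2b, Ccng1, Trp53inp1 and Sesn2 lower (24% of genes).

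The diet moved 3 of the 9 genes in WT mice. Cdkn1a, Cdkn2a and Ccng1 rose under HFD, 2.56-fold, 4.26-fold and 1.66-fold, beside 9.35% of all genes that rose and 5.47% that fell (14.8% in either direction). With 12 libraries the 3 that rose were Cdkn1a, Ccng1 and Trp53, beside 9.05% of genes that rose and 5.97% that fell. When the 2 WT groups were fitted alone, none of the 9 genes and no other gene was called. By levels alone, Trp53, Cdkn1a and Ccng1 lay higher in every WT HFD library than in every WT CD library (17.3% of genes over 12 libraries) and none lower (10.4% of genes). In HoipA-KO mice none of the 9 genes was called between HFD and CD, and neither was any other gene (0% of 18427 with edgeR, 415 genes at an unadjusted p under 0.05, 7 genes with DESeq2). The largest differences there were a log2 fold change of -0.58 for Gdf15 (95% interval -2.02 to 0.85) and 0.52 for Cdkn2a (-0.02 to 1.06), and the intervals of the other 7 genes lay within -0.60 and 0.86. The levels of all 9 genes overlapped between the diets in HoipA-KO, as did those of most genes (with 12 libraries 3.4% lay apart in the higher and 2.48% in the lower direction, and with 11 libraries 3.42% and 2.5%). HoipA-KO against WT on CD and HFD against CD in WT share the WT CD libraries.

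**Figure D1:**
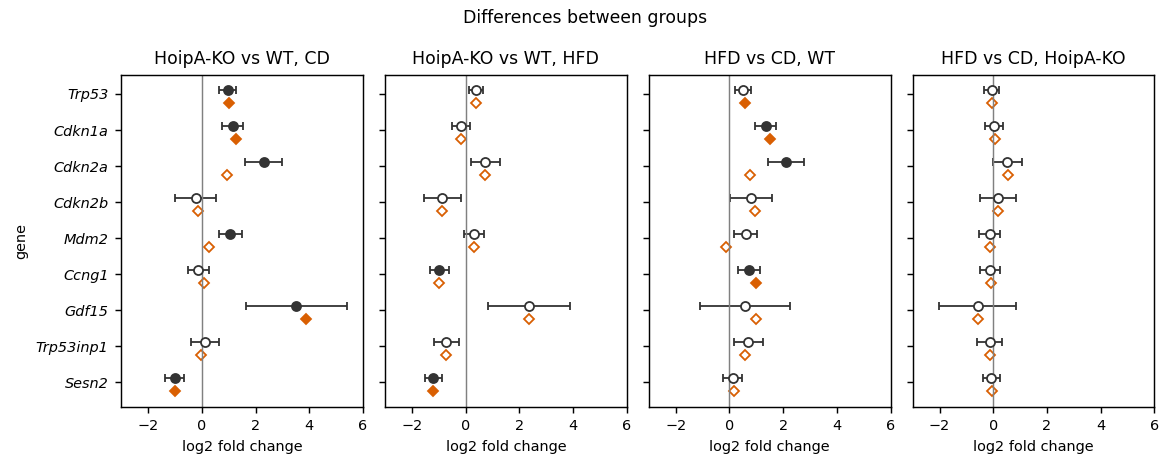
Log2 fold change of each gene (x axis) in 4 comparisons, with 95% intervals from edgeR on 11 libraries as circles and the estimate from all 12 libraries as diamonds, both filled where the adjusted p was under 0.05. Cdkn2a and Mdm2 moved most between the fits, while Trp53, Cdkn1a, Gdf15 and Sesn2 on CD were called in both.

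Trp53 varied little within groups. In WT CD its 3 levels were 25, 23.9 and 20.3 CPM, and 29.4, 35.6 and 38.3 CPM in WT HFD. In HoipA-KO they were 42.4, 45.1 and 51.2 CPM on CD and 41.4, 42.1 and 50.3 CPM on HFD. The 3 WT CD libraries were lowest, WT HFD lay between, and both HoipA-KO groups lay above all WT libraries and overlapped each other. On CD the log2 fold change of HoipA-KO against WT was 0.96 ± 0.16 (SE, edgeR adjusted p = 0.00175), and 1.0 with 12 libraries. On HFD it was 0.39 ± 0.14 (edgeR adjusted p = 0.0906) and did not pass. HFD against CD in WT gave 0.51 ± 0.16 (edgeR adjusted p = 0.056) with 11 and 0.58 (edgeR adjusted p = 0.0391) with 12 libraries, and it also passed without WT HFD replicate 1 (edgeR adjusted p = 0.0418).

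Mdm2, the ligase that removes p53, depended on 1 library. In WT CD its first 2 libraries stood at 41.1 and 39 CPM but replicate 3 at 121 CPM, the highest of all 12 libraries. WT HFD held 55.2, 58.8 and 68 CPM, HoipA-KO CD 76.6, 101 and 65.5 CPM, and HoipA-KO HFD 64.4, 86.5 and 72.5 CPM. Without WT CD replicate 3, the HoipA-KO libraries lay above WT on CD (log2 fold change 1.07 ± 0.22, edgeR adjusted p = 0.00542), and with it the log2 fold change was 0.27 (edgeR adjusted p = 0.602). HFD against CD in WT gave 0.61 ± 0.22 (edgeR adjusted p = 0.0859), which passed without HoipA-KO CD replicate 2 (edgeR adjusted p = 0.0492) and was -0.15 with 12 libraries. The testis and sperm markers were highest in WT CD replicate 3, and their part in the Mdm2 level was not tested.

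Cdkn1a rose both with the genotype on CD and with HFD in WT. WT CD held 63.6, 51.5 and 39.5 CPM, against 138, 137 and 162 CPM in WT HFD. HoipA-KO held 110, 131 and 132 CPM on CD and 111, 119 and 155 CPM on HFD. All 9 libraries of the other 3 groups lay above the WT CD libraries. HoipA-KO HFD overlapped both WT HFD and HoipA-KO CD, while every WT HFD library lay above every HoipA-KO CD library. HoipA-KO against WT on CD gave a log2 fold change of 1.16 ± 0.20 (edgeR adjusted p = 0.00207) and HFD against CD in WT 1.35 ± 0.20 (edgeR adjusted p = 0.00617). On HFD the difference between genotypes was -0.17, with a 95% interval of -0.50 to 0.17, and HFD against CD in HoipA-KO gave 0.03 (-0.30 to 0.37). Cdkn1a was the only one of the 9 genes with a called interaction of genotype and diet, at -1.32 ± 0.26 on the log2 scale (edgeR adjusted p = 0.0293, -1.45 with 12 libraries), beside 3.91% of all genes called (with 12 libraries 2.78%, of which 0.0775% higher and 2.7% lower). This call was lost when any of 8 of the 11 libraries was left out, namely WT CD replicate 2, WT HFD replicates 2 and 3, each of the HoipA-KO CD libraries, and HoipA-KO HFD replicates 1 and 3, with edgeR adjusted p of 0.0609 to 0.0965 and log2 values of -1.41 to -1.11.

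Cdkn2a was scarce throughout. In WT CD it stood at 0.463 and 0.499 CPM, except for replicate 3 with 2.67 CPM. WT HFD held 1.93, 2.04 and 2.16 CPM, HoipA-KO CD 1.76, 1.92 and 3.26 CPM, and HoipA-KO HFD 3.25, 2.98 and 3.79 CPM. The first 2 WT CD libraries were the lowest of all, while WT CD replicate 3 exceeded every WT HFD library. With 11 libraries Cdkn2a was 4.92-fold higher in HoipA-KO on CD (log2 2.30 ± 0.34, edgeR adjusted p = 0.00112) and 4.26-fold higher under HFD in WT (log2 2.09 ± 0.34, edgeR adjusted p = 0.00695). With 12 libraries the log2 fold changes were 0.93 (edgeR adjusted p = 0.251) and 0.75 (edgeR adjusted p = 0.416). On HFD, HoipA-KO against WT gave 0.73 ± 0.28 (edgeR adjusted p = 0.111). The counts are of the whole gene, so p16INK4a and p19ARF transcripts were not told apart.

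Cdkn2b, although it neighbours Cdkn2a, did not follow it. Its levels were 15.8, 6.28 and 8.04 CPM in WT CD, 22.4, 21.7 and 13.5 CPM in WT HFD, 9.04, 7.26 and 11.1 CPM in HoipA-KO CD, and 12.7, 7.5 and 11 CPM in HoipA-KO HFD. WT HFD was the highest group and overlapped only with WT CD, through its replicate 1. No comparison was called with the 11 libraries, and the log2 difference of HoipA-KO from WT was -0.23 (95% interval -0.99 to 0.53) on CD and -0.87 (-1.56 to -0.19) on HFD, the latter with an edgeR adjusted p of 0.124. HFD against CD in WT gave 0.81 (edgeR adjusted p = 0.191), but 1.64 and a call without WT CD replicate 1 (edgeR adjusted p = 0.0194), and the difference on HFD passed without WT CD replicate 2 (edgeR adjusted p = 0.0417).

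Ccng1 was highest in WT HFD, whose libraries held 258, 258 and 296 CPM. WT CD held 179, 149 and 80.0 CPM, HoipA-KO CD 131, 185 and 121 CPM, and HoipA-KO HFD 145, 138 and 126 CPM, so that all other libraries lay below WT HFD. The rise under HFD in WT was 0.73 ± 0.21 on the log2 scale (edgeR adjusted p = 0.0467, and with 12 libraries a log2 fold change of 0.99 with an adjusted p of 0.0387), and HoipA-KO was lower than WT on HFD by -0.98 ± 0.19 (edgeR adjusted p = 0.0162, and an adjusted p of 0.0768 with 12 libraries). Both calls were near the threshold. The first was lost on leaving out any 1 of 9 of the 11 libraries (all but WT CD replicate 1 and HoipA-KO CD replicate 2), at log2 values of 0.57 to 0.77. The second was lost on leaving out replicate 1 or replicate 2 of WT HFD, or else replicate 2 or replicate 3 of HoipA-KO HFD, at -1.01 to -0.93. Its interaction was -0.85 ± 0.28 (edgeR adjusted p = 0.118).

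Trp53inp1 was also highest in WT HFD, with more overlap. It had 25.4, 28.1 and 33.8 CPM in WT CD, 53.9, 32.9 and 42.9 CPM in WT HFD, 35, 29.2 and 21.0 CPM in HoipA-KO CD and 25.1, 31.3 and 21.7 CPM in HoipA-KO HFD. Only the WT HFD libraries lay apart from HoipA-KO HFD, and no comparison was called. HoipA-KO against WT was 0.13 (95% interval -0.39 to 0.65) on CD and -0.71 (-1.18 to -0.25, edgeR adjusted p = 0.0773) on HFD.

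Sesn2 (sestrin 2) differed by genotype. It was at 31.5, 45.4 and 34 CPM in WT CD and 46.3, 41.8 and 36.3 CPM in WT HFD. HoipA-KO CD held 17.2, 17.6 and 20.8 CPM and HoipA-KO HFD 19.8, 16.0 and 17.5 CPM. On either diet, the highest HoipA-KO library was below the lowest one of WT. HoipA-KO against WT gave -1.01 ± 0.18 on CD (edgeR adjusted p = 0.00252) and -1.21 ± 0.17 on HFD (edgeR adjusted p = 0.00871), and both were called with 12 libraries as well, at -1.0 and -1.22. The diet made a difference of 0.12 (95% interval -0.23 to 0.48) in WT and of -0.07 (-0.39 to 0.25) in HoipA-KO. It was the only one of the 9 genes called in the same direction in both comparisons of genotype.

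Gdf15 had the largest fold change. It was at 0.439, 5.41 and 0.779 CPM in WT CD and 1.53, 4.36 and 7.06 CPM in WT HFD, against 30.0, 33.3 and 34.9 CPM in HoipA-KO CD and 17.8, 34.4 and 13.8 CPM in HoipA-KO HFD. All HoipA-KO libraries exceeded all WT libraries. Within WT CD, replicate 2 was the highest and is the library with most epididymal RNA, whose part in this level was not tested. The log2 fold change of HoipA-KO against WT was 3.52 ± 0.96 on CD (edgeR adjusted p = 0.018), between 2.63 without WT CD replicate 1 and 6.26 without WT CD replicate 2, and called in both cases, but it did not pass when the 2 CD groups were fitted alone (edgeR adjusted p = 0.0592). On HFD it was 2.36 ± 0.77 (edgeR adjusted p = 0.0734), and it passed without WT CD replicate 1 (edgeR adjusted p = 0.0182) or 2 (edgeR adjusted p = 0.0151). With these left out, 1 WT CD library remained and was assumed to vary like the other groups. HFD against CD in WT gave 0.58 ± 0.85 (edgeR adjusted p = 0.682).

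**Figure D2:**
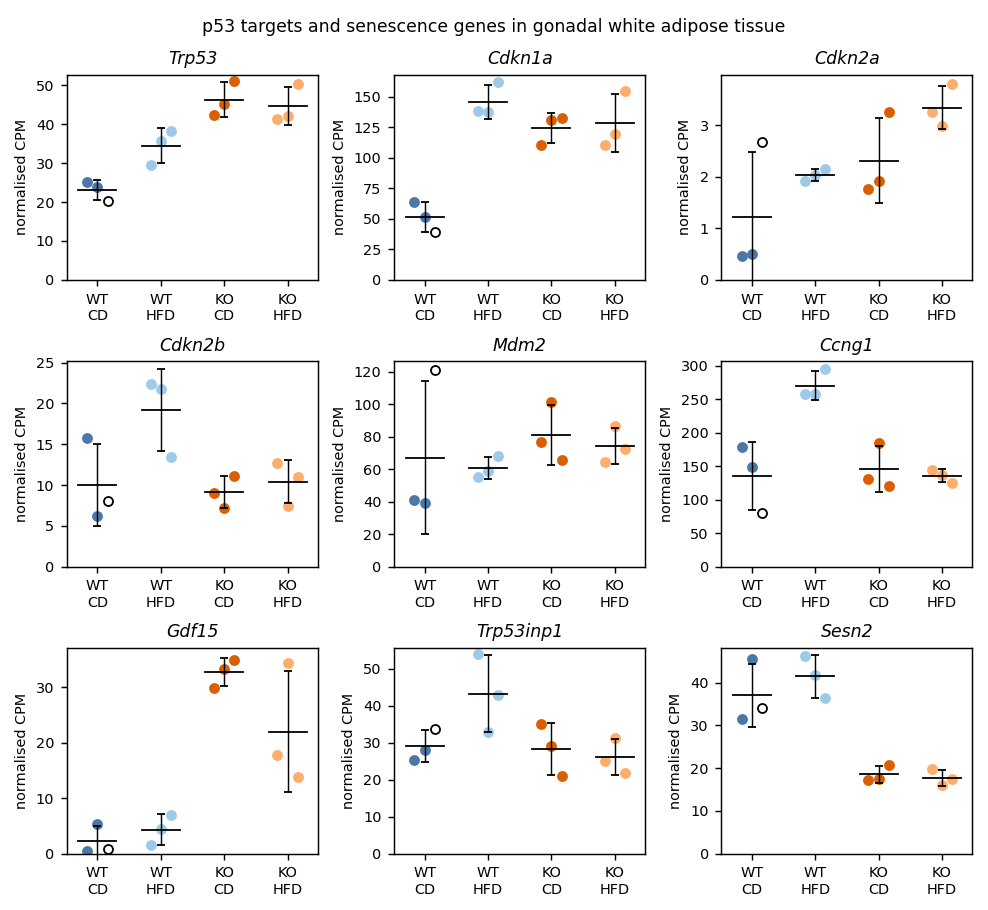
Normalised CPM (y axis, from 0) of the 9 genes in each library by group, with the mean of 3 libraries as a line and the SD as bars; KO stands for HoipA-KO, and the open circle is WT CD replicate 3. Cdkn2a and Mdm2 were far above the other WT CD libraries there, at 2.67 and 121 CPM, and Sesn2 was below 21 CPM in all 6 HoipA-KO libraries.

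Compared per kilobase of exon (normalised CPM divided by the union of annotated exons), Ccng1 was first and Cdkn1a the next in all 4 groups. In WT CD their levels were 38.8 ± 14.5 and 14.5 ± 3.4 CPM per kb (SD, n = 3). In HoipA-KO the 2 were close, at 41.4 ± 9.8 and 35 ± 3.47 CPM per kb on CD and 38.7 ± 2.74 and 36.1 ± 6.62 CPM per kb on HFD, which lay within their spread. The clearest change of place was that of Gdf15, at 1.19 ± 1.5 CPM per kb in WT CD and 17.7 ± 1.37 CPM per kb in HoipA-KO CD, where it was the third gene, within the SD of Mdm2 at 16.0 ± 3.61. Cdkn2a had the lowest mean in every group, from 1.03 ± 1.08 CPM per kb in WT CD (0.411 without replicate 3) to 2.85 ± 0.352 CPM per kb in HoipA-KO HFD. In both WT groups this mean lay within the SD of Gdf15, which in WT HFD was at 2.33 ± 1.49 CPM per kb against 1.74 for Cdkn2a. Mdm2 was the third gene in WT CD, at 13.2 ± 9.23 CPM per kb, and the fifth without replicate 3, at 7.88 CPM per kb, next to Cdkn2b at 7.93 and after Sesn2 at 11.1. Cdkn2b and Mdm2 there did not differ beyond their spread.

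Further p53 target genes, 27 of them and all tested, did not move as 1 group. On CD 8 were higher in HoipA-KO GWAT and 2 lower, with a median log2 fold change of 0.21 beside -0.06 for all genes. The 10 of 27 called are close to the 37.7% of all genes called in this comparison. With 12 libraries 6 were higher and none lower, with a median of -0.03 beside -0.21. The largest changes were in Ckap2 (2.97 ± 0.39), Plk2 (2.67 ± 0.36), Gtse1 (2.54 ± 0.28) and Apaf1 (1.99 ± 0.31, edgeR adjusted p = 0.00128), on the log2 scale. Plk2 is a polo-like kinase, Apaf1 the core of the apoptosome, and Ckap2 and Gtse1 are also expressed in dividing cells. Plk2 stood at 25.9, 17 and 17.6 CPM in WT CD, 48.2, 69.3 and 98.1 CPM in WT HFD, 116, 164 and 115 CPM in HoipA-KO CD and 93.6, 131 and 133 CPM in HoipA-KO HFD, and its groups on CD did not overlap with or without WT CD replicate 3. Ckap2, in contrast, was at 0.926 and 1.17 CPM in the first 2 WT CD libraries and 11 CPM in WT CD replicate 3, and with 12 libraries its log2 fold change was 0.86 (edgeR adjusted p = 0.404). Gtse1 likewise was at 1.32 and 1.43 CPM and, in replicate 3, at 7.76 CPM, within the 5.99 to 9.5 CPM of HoipA-KO CD, and its log2 fold change with 12 libraries was 1.15 (edgeR adjusted p = 0.152). The 2 lower genes, Fas and Rrm2b, encode a death receptor and a subunit of ribonucleotide reductase. On HFD, Bax (0.77 ± 0.20) and Gadd45a (0.87 ± 0.18) were higher and Fas (-1.09 ± 0.21) and Phlda3 (-1.32 ± 0.37, edgeR adjusted p = 0.047) lower, with a median of 0.00 beside 0.06, beside 11.8% of all genes called, and none of the 27 was called with 12 libraries. In WT, HFD raised 5 of the 27 (4 with 12 libraries), beside 9.35% of all genes, with a median of 0.33 beside 0.00. The interaction was called, in the lower direction, for Gtse1, Ckap2 and Plk2, beside 3.58% of all genes. This count of 3 ran from 0 to 6 when libraries were left out. With 12 libraries 2 genes had a called interaction, Plk2 among them, beside 2.7% of all genes. A single p53 half-site was present in 11 of the 27 windows found for 21 of these genes (40.7%), beside 8.36% of all windows, and a pair in none. The same site of Aen was counted in both windows of that gene.

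Among 20 regulators and relatives of p53, 1 was higher and 5 lower in HoipA-KO on CD (median -0.04 beside -0.06 for all genes), a share below the 37.7% of all genes called. Mdm4, which binds and restrains p53, was lower by -0.79 ± 0.19 on the log2 scale (edgeR adjusted p = 0.0101, and -0.98 with 12 libraries). It was at 72.8, 74.6 and 98.4 CPM in WT CD against 44.3, 35.1 and 45.1 CPM in HoipA-KO CD. Ppp1r13b, a cofactor of p53 in apoptosis, was lower by -1.14 ± 0.28 (edgeR adjusted p = 0.0111), with 30.1, 68.1 and 37.6 CPM in WT CD and 18.9 to 23.5 CPM in HoipA-KO CD. Its highest level was in WT CD replicate 2, which held most epididymal RNA, whose part was not tested. Trp63 had the largest fold change, at -5.08 ± 1.5 (edgeR adjusted p = 0.0249), but it was at 13.1 CPM in WT CD replicate 2 and 5.81 CPM in HoipA-KO HFD replicate 1, the 2 libraries with most epididymal RNA, and the part of that RNA was not tested. The checkpoint kinase Chek1 was higher (1.67 ± 0.52), while with 12 libraries its log2 fold change was 0.11. On HFD only Hipk2, a kinase that phosphorylates p53, was called, at -1.85 ± 0.46 (edgeR adjusted p = 0.0348), 1 of 20 beside 11.8% of all genes. In WT, HFD lowered Trp53bp2 (-0.61 ± 0.16) and Rchy1 (-0.44 ± 0.12, edgeR adjusted p = 0.0385), 2 of 20 beside 14.8% of all genes. With 12 libraries these 3 calls were lost, and 0 genes were higher and 5 lower on CD, with a median of -0.28 beside -0.21.

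The other 18 genes of the restriction point (CDK inhibitors, the RB family, G1 cyclins and E2Fs) were called in both directions. On CD 7 were higher and 2 lower in HoipA-KO, with a median of 0.74 beside -0.06. With 12 libraries these counts were 6 and 2, with a median of 0.35 beside -0.21. When HoipA-KO CD replicate 2 was left out of the 11 libraries, the higher count was 4. All genes were called higher in 18.9% and lower in 18.8% (15.6% and 19.1% with 12 libraries), so the lower calls were not above that share. Cdkn1c (p57), a relative of Cdkn1a, was higher by 1.68 ± 0.53 (edgeR adjusted p = 0.0314), while Cdkn2c (p18), a relative of Cdkn2a, was lower by -1.71 ± 0.28 (edgeR adjusted p = 0.00171). Cdkn2c was at 260, 134 and 152 CPM in WT CD and 52.1, 50.5 and 73.0 CPM in HoipA-KO CD. E2f1 (1.77 ± 0.29) and Cdk6 (1.80 ± 0.51), which drive entry into the cycle, were higher. In WT, HFD raised E2f1 (1.20 ± 0.29) and lowered Cdkn2c (-0.97 ± 0.28, edgeR adjusted p = 0.0464, and 0.0522 with 12 libraries, where 2 genes were higher and none lower). These counts of 1 higher and 1 lower stand beside 9.35% and 5.47% of all genes. When libraries were left out they ran from 0 to 4 and from 0 to 1. On HFD Cdk4 was higher (0.75 ± 0.17) and Cdkn2c (-0.95 ± 0.26), Rb1 (-1.02 ± 0.25) and Ccnd2 (-1.20 ± 0.14, edgeR adjusted p = 0.00739) were lower, of which Ccnd2 alone was called with 12 libraries. These counts of 1 higher and 3 lower stand beside 4.2% and 7.62% of all genes. They ran from 0 to 2 and from 1 to 3 when libraries were left out.

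All 20 genes of S phase and mitosis were higher in HoipA-KO GWAT on CD, with a median of 3.26, beside 18.9% of all genes. Under HFD in WT 17 of 20 were higher, with a median of 2.36, beside 9.35% of all genes. Cdkn1a and the genes of dividing cells thus rose in the same comparisons. The levels of Tk1, a thymidine kinase of S phase, were 1.46, 1.48 and 1.35 CPM in WT CD and 21.9, 28.5 and 32.2 CPM in HoipA-KO CD. This list depended on WT CD replicate 3, which held 716 CPM of its genes, against 131 and 146 CPM in the other 2 WT CD libraries and 686 to 1032 CPM in HoipA-KO CD. With 12 libraries 10 genes were higher on CD (median 1.54) and 5 under HFD in WT (median 0.70), beside 15.6% and 9.05% of all genes. Bub1, a mitotic checkpoint kinase, went from 4.28 ± 0.55 to -0.84 (edgeR adjusted p = 0.635), with 51.3 CPM in WT CD replicate 3. This library also held most of the testis and sperm RNA, and the part of that RNA was not tested. On HFD 5 of 20 were higher in HoipA-KO, among them Tk1 (1.36 ± 0.32) and Pcna (1.02 ± 0.28, edgeR adjusted p = 0.0462), beside 4.2% of all genes, and none with 12 libraries. The interaction was called, in the lower direction, for 13 of 20, beside 3.58% of all genes. That count was 1 with 12 libraries and ran from 0 to 16 when libraries were left out.

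Of 37 secreted factors of the senescence-associated secretory phenotype 36 were tested, and 26 were higher and 1 lower in HoipA-KO GWAT on CD, with a median of 2.42 on the log2 scale beside -0.06 for all genes, of which 18.9% were higher and 18.8% lower, and with 12 libraries 25 were higher and 1 lower (median 2.22). The macrophage elastase Mmp12 was higher by 7.85 ± 1.31 (edgeR adjusted p = 0.00184), the chemokine Ccl3 by 6.11 ± 0.61 and osteopontin (Spp1) by 5.16 ± 1.24, while the angiogenic factor Vegfa was the 1 lower gene (-2.02 ± 0.42, edgeR adjusted p = 0.00523). Under HFD in WT 14 were higher and none lower (median 1.54, and 20 higher with 12 libraries), beside 9.35% of all genes higher, led by Mmp12 (4.68 ± 1.12), Ccl3 (4.45 ± 0.58) and Timp1 (3.66 ± 0.44). On HFD 9 were higher and 2 lower in HoipA-KO (median 0.92), beside 4.2% and 7.62% of all genes, and 2 and none with 12 libraries. Mmp12 and Spp1 also stand on the list of lipid-associated macrophage markers, and many of these factors are made by macrophages.

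Of 16 nuclear and lysosomal genes used as signs of senescence, 10 were higher and 1 lower in HoipA-KO on CD (median 1.15), beside 18.9% and 18.8% of all genes. With 12 libraries these counts were 7 and 1 (median 0.37), beside 15.6% and 19.1% of all genes. Among those with more than 3 counts in both WT CD libraries tested, the most changed were Gpnmb (7.92 ± 1.02), a lysosomal membrane protein, Hmga1 (3.97 ± 0.57), a chromatin protein, and Cd9 (3.58 ± 0.41, edgeR adjusted p = 0.000498). Gpnmb and Cd9 are lipid-associated macrophage markers too. Lmnb1 (lamin B1), whose loss marks senescent cells, was among the genes that rose (1.18 ± 0.23, edgeR adjusted p = 0.00369). The 10 higher genes also included Lmna, Hmgb2, Ezh2, Uhrf1 and Dnmt1. Not every gene of this list rises in senescent cells, so the count of 10 is not a count of genes that moved as in senescence. Hmga2 was called as well, but at 1 count in WT CD replicate 1 it is given no fold. On HFD 2 of the 16 were higher (none with 12 libraries) and under HFD in WT 6 (5 with 12 libraries), beside 4.2% and 9.35% of all genes, with none lower in either. The integrated stress response, the other known route to Gdf15 and Sesn2, held 4 of 21 genes higher and 3 lower on CD (median 0.25 beside -0.06, and with 12 libraries 3 and 3 at a median of 0.08 beside -0.21), which is not above the 37.7% of all genes called. Atf3 was higher by 5.53 ± 0.67 (edgeR adjusted p = 0.000528), while the serine synthesis genes Phgdh (-2.50 ± 0.33) and Psat1 (-1.69 ± 0.21) were lower. On HFD 2 were higher and 4 lower (median -0.07 beside 0.06), beside 4.2% and 7.62% of all genes, and with 12 libraries Phgdh alone was called. These 2 counts ran from 0 to 2 and from 1 to 5 when libraries were left out. With 11 libraries Phgdh stood at -2.19 ± 0.31 and Psat1 at -1.04 ± 0.20 (edgeR adjusted p = 0.0152). Under HFD in WT 2 were higher and 2 lower (2 and 1 with 12 libraries, and 0 to 7 and 0 to 3 when libraries were left out), beside 9.35% and 5.47% of all genes, with Atf3 at 3.80 ± 0.61 and Asns at -1.01 ± 0.27 (edgeR adjusted p = 0.0349). None of these lists held a call between the diets in HoipA-KO. The counts of higher genes on HFD moved when libraries were left out, from 1 to 14 for the secretory list, 0 to 10 for S phase and mitosis, 0 to 5 for the nuclear and lysosomal list and 0 to 3 for the p53 targets. Under HFD in WT they ran from 5 to 16, 9 to 18, 2 to 7 and 3 to 9 in the same order, and on CD from 20 to 26, 18 to 20, 9 to 11 and 7 to 10.

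**Figure D3:**
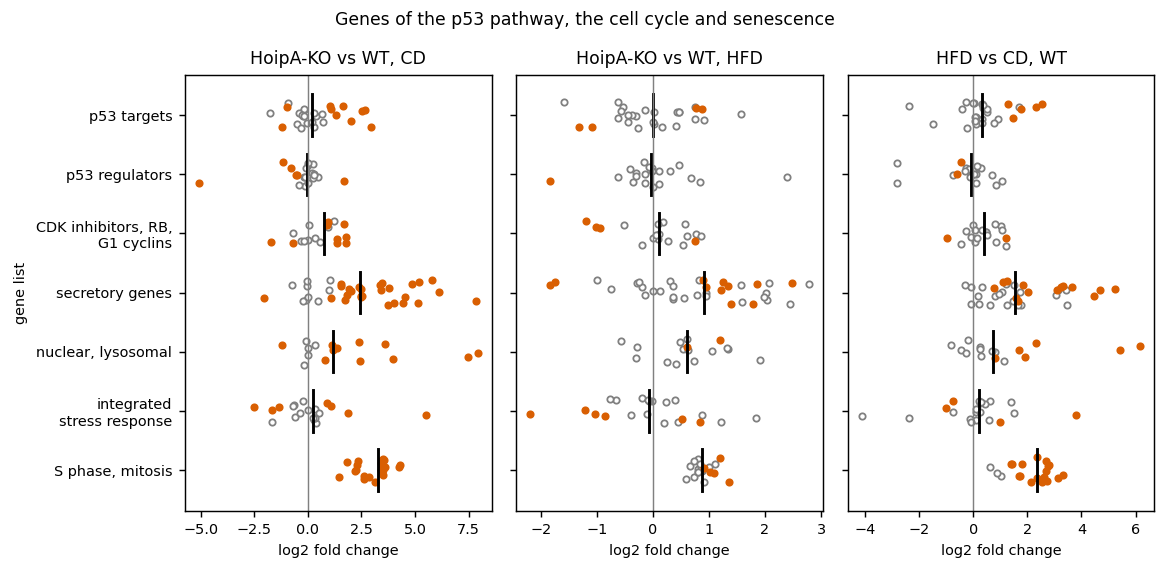
Log2 fold change (x axis, 11 libraries) of each tested gene of 7 lists in 3 comparisons, filled where the edgeR adjusted p was under 0.05, with the median of the list as a bar. Secretory genes and genes of S phase and mitosis lay mostly to the right on CD, with medians of 2.42 and 3.26, while the medians of p53 targets and p53 regulators were 0.21 and -0.04.

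The make-up of the tissue moved along with these genes. In bulk samples, fewer cells of a type and less RNA per cell cannot be told apart. The 10 adipocyte markers, of which Fabp4 was the most abundant, summed to 73430, 30780 and 20890 CPM in WT CD, 27020 to 40490 CPM in WT HFD, 7181 to 10970 CPM in HoipA-KO CD and 6171 to 8774 CPM in HoipA-KO HFD, so that GWAT of all groups held RNA of its defining cell type. Of these markers 9 of 10 were lower in HoipA-KO on CD and 10 of 10 on HFD (8 with 12 libraries), with medians of -2.08 and -2.09. Beside them 18.8% of all genes were lower on CD and 7.62% on HFD (2.25% with 12 libraries). The 9 macrophage markers, led by Lgals3, summed to 354 to 651 CPM in WT CD, 1622 to 5150 CPM in WT HFD, 8587 to 9902 CPM in HoipA-KO CD and 6325 to 10290 CPM in HoipA-KO HFD. The 8 lipid-associated macrophage markers, led by Gpnmb, summed to 102 to 227, 1076 to 5451, 12530 to 19780 and 6494 to 17090 CPM in the same order. Of the macrophage markers 8 of 9 were higher in HoipA-KO on CD, 6 of 9 on HFD and 8 of 9 under HFD in WT. Beside them 18.9%, 4.2% and 9.35% of all genes were higher. With 12 libraries 0 of 9 were called on HFD, beside 0.531% of all genes. Their median log2 fold change on HFD was 1.26 with 11 and 1.25 with 12 libraries. The interaction of genotype and diet was called, in the lower direction, for 5 of 9 macrophage and 6 of 8 lipid-associated macrophage markers, beside 3.58% of all genes. With 12 libraries these counts were 5 and 7, beside 2.7% of all genes. None of the adipocyte, macrophage or lipid-associated macrophage markers was at 0 counts in any library. The order of groups from WT CD over WT HFD to HoipA-KO was thus that of the macrophage sums and of the means of Trp53, Cdkn2a and Gdf15. Mdm2 had this order only without WT CD replicate 3. The means of Cdkn1a, Cdkn2b, Ccng1, Trp53inp1 and Sesn2 did not follow it. The part of either cell type in the levels of the 9 genes was not tested.

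Markers of other cells are given beside the 18.9% of all genes that were higher and 18.8% that were lower on CD. There 4 of 5 mast cell markers (most abundant Tpsb2) and 4 of 8 stem and progenitor cell markers (Col3a1) were higher in HoipA-KO, as were 1 of 4 monocyte (Ccr2), 1 of 4 tested neutrophil (S100a8 most abundant), 1 of 6 T cell (Cd4) and 2 of 5 dendritic cell markers (Zbtb46 most abundant, 1 of 5 with 12 libraries). Endothelial markers (Pecam1 most abundant) were lower in 2 of 6 (1 with 12 libraries), and 1 of 6 pericyte and smooth muscle markers (Acta2 most abundant) was higher and 1 lower. No B cell (Cd79b), NK cell (Klrk1) or mesothelial marker (Upk3b) was called with 11 libraries, and 1 NK cell marker was higher with 12. Except for mast, progenitor, dendritic and endothelial cells, these counts are of at most 1 marker in each direction. Under HFD in WT 4 of 5 mast cell and 4 of 8 progenitor markers were higher (4 and 5 with 12 libraries, 9.35% of all genes), and on HFD 2 of 5 mast cell markers were higher in HoipA-KO (none with 12 libraries, 4.2% of all genes). On HFD 2 of 6 endothelial markers were lower in HoipA-KO (none with 12 libraries, 7.62% of all genes). There 1 monocyte, 1 neutrophil and 1 T cell marker were higher and 1 pericyte and smooth muscle marker lower. Of these, only the monocyte and neutrophil markers were called with 12 libraries. On CD the median of the mast cell markers was 6.83 on the log2 scale. Their sum was 20.3 to 30.4 CPM in WT CD and 549 to 658 CPM in HoipA-KO CD.

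**Figure D4:**
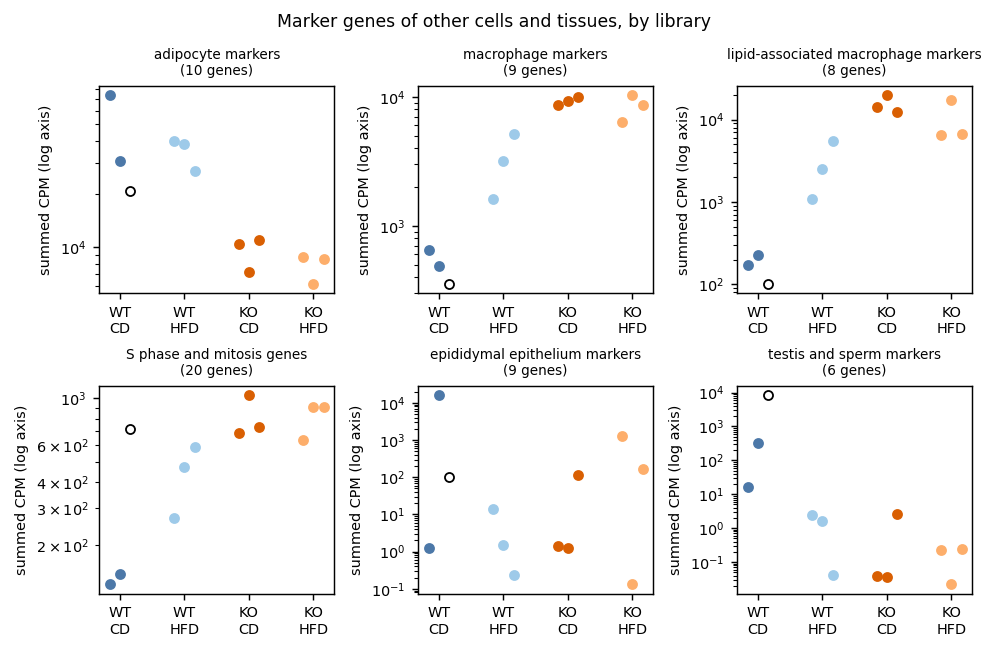
Summed normalised CPM (y axis, log scale) of 6 lists in each library by group, with WT CD replicate 3 as an open circle and KO for HoipA-KO. Macrophage sums rose from at most 651 CPM in WT CD to at least 6325 CPM in HoipA-KO, and testis and epididymal sums peaked in WT CD replicates 3 and 2.

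For each of the 9 genes, the 3 genes with the most alike pattern were taken by Pearson's r of log2(CPM + 1) over the 12 libraries, among genes with a mean of at least 10 CPM. These values are descriptions over 12 libraries of 4 groups, so they carry the differences between groups. Trp53 was most like Ptpn18 (r = 0.988), Gpsm3 and Tnfaip8l2, and Gdf15 like Pstpip1 (0.986), Slc40a1 and C77080. Cdkn1a was most like Pea15a (0.975), Nav1 and Prkch, and Mdm2 like Cacul1 (0.986), Ankrd13a and Cux1. Cdkn2a was most like Ccdc86 (0.945), Ccdc88b and Aaas, and Cdkn2b like Fam174b (0.959), Sema3f and Cryab. Ccng1 was most like Deptor (0.973), Pcdh12 and Tlr3, Sesn2 like Stox2 (0.959), Tln2 and Myh14, and Trp53inp1 like Rlf (0.868), Zfp26 and Atf7ip.

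On GRCm38, by GENCODE M21, Trp53inp1 (chr4:11156431-11174379), Cdkn2a (chr4:89274471-89294653), Cdkn2b (chr4:89306299-89311039) and Sesn2 (chr4:132492032-132510501) lie on chromosome 4, and Ccng1 (chr11:40748552-40755311) and Trp53 (chr11:69580359-69591873) on chromosome 11. Gdf15 lies at chr8:70629393-70632456, Mdm2 at chr10:117688875-117710758 and Cdkn1a at chr17:29090976-29100727. All are protein-coding. Cdkn1a overlaps an unnamed transcript (AC167363.2) on the other strand and Sesn2 overlaps Gm12981 on its own strand, so that reads shared with the latter could be split between the 2 genes.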

How the data were processed

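RNA of GWAT was sequenced as stranded poly-A libraries, 12 in all, each a pool of 3 mice. The authors trimmed reads with Trim Galore 0.6.7, aligned them with STAR 2.7.10a and estimated counts per gene with Salmon 1.5.2. These deposited estimated counts for 55281 genes are not normalised. The submitters' processing notes name GRCm38 and the identifiers are those of mouse genes, while the methods name GRCh38. The authors' own comparison tables hold fold changes, p-values and CPM of 11 libraries and were not used. No column of values of unknown samples was present.

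Low counts were removed with filterByExpr after rounding to whole numbers, and the rest normalised by TMM (trimmed mean of M-values). Levels use all 12 libraries and tests 11. The counts were fitted in 1 model of the 4 groups with edgeR 4.0.16 (R 4.3.3) and tested with its quasi-likelihood test, with Benjamini-Hochberg adjustment at 0.05 over all 18427 genes (18074 with 12 libraries). Rows without a symbol held 0.00630% to 0.0201% of the counts and were kept, since they carry identifiers. Replicates are pools of different mice as far as the labels say, and no 2 libraries of the same group held identical values. Between the diets in HoipA-KO the same-numbered libraries deviated together (r = 0.144, 0.506 and 0.287), and a replicate block gave no call there either. Intervals are 1.96 SE on either side. The script was tested on simulated data with 100 genes changed at each size. A log2 fold change of 1 was called in 9% of them for the genotype on CD and 17% on HFD. For the diet it was 4% in WT and 16% in HoipA-KO, and for the interaction 0%. At a log2 fold change of 2 these shares were 55%, 57%, 51%, 53% and 24%. Fewer genes were changed there than were called on CD in the data, which bears on the adjustment of p.

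The 9 genes and the 23 lists of pathway genes and markers were chosen with earlier results of these data known. In each comparison the text names the 9 genes, at most the 4 called genes of a list with the largest change, the genes that define a list, the most abundant marker of a list and the most alike genes. Genes with at most 3 counts in a WT CD library were not given folds. Fas, Rrm2b, Vegfa, Lmnb1, Lmna, Hmgb2, Ezh2, Uhrf1 and Dnmt1, and single markers of other cells, were named after their values were seen. Sequences came from RefSeq and positions from GENCODE M21. Alternatives were other normalisations, filters, thresholds and libraries, protein-coding genes only, a replicate block, 2 groups at a time, and DESeq2 1.42.0.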

Additional observations from a re-analysis of the deposited data

Results flagged for a closer look

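For Cdkn1a the difference between genotypes was tested between the diets, with an interaction of -1.32 on the log2 scale (edgeR adjusted p = 0.0293). The call was lost when any of 8 of the 11 libraries was left out (edgeR adjusted p of 0.0609 to 0.0965), and without WT CD replicates 2 and 3 and HoipA-KO HFD replicate 1 (0.16). Cdkn1a was higher in HoipA-KO than in WT in 3 of 3 libraries on CD and overlapped on HFD. WT CD replicate 3, which the tests of 11 libraries leave out, held Cdkn2a at 2.67 CPM and Mdm2 at 121 CPM, above the levels in the other 2 WT CD libraries. It also held most of the testis and sperm RNA, and the part of that RNA in both levels was not tested.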

How the results depend on the processing

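The number of the 9 genes called on CD was 6 and stayed between 4 and 6 under all alternatives, and that for HFD against CD in HoipA-KO was 0 in all. HoipA-KO against WT on HFD gave 2 genes, but 1 with all 12 libraries, with an adjusted p under 0.01 or with a log2 fold change over 1, 6 with DESeq2's Wald test, 4 without the 3 libraries holding most testis or epididymal RNA (WT CD replicates 2 and 3 and HoipA-KO HFD replicate 1, chosen after seeing the data), and 1 to 4 when each library was left out in turn. The interaction gave 1 gene, but 3 with DESeq2, 0 with an adjusted p under 0.01 or without those 3 libraries, 0 to 1 with each library left out, and, with WT CD replicate 3 kept, 2 without WT CD replicate 1 and 0 without WT CD replicate 2. HFD against CD in WT gave 3 genes, 2 to 4 with each library left out, but 0 when only these 2 groups were fitted, where no gene at all was called. The cause of these shifts was not tested. Over all genes, the calls ranged from 3619 to 8264 (6947 in the report) on CD, 185 to 4410 (2179) on HFD, 0 to 7046 (2731) for the diet in WT and 1 to 3668 (721) for the interaction.

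Signs changed only in comparisons of genes that were not called. With all 12 libraries, and then without WT CD replicate 1 or 2, the log2 fold changes were 0.096, 0.374 and 0.175 for Ccng1 and -0.034, -0.088 and -0.048 for Trp53inp1 on CD, -0.146, -0.365 and -0.409 for Mdm2 under HFD in WT, and 0.023, 0.239 and 0.285 for its interaction. Cdkn2b on CD was 0.388 with 12 libraries less WT CD replicate 1, and the interaction of Cdkn2a 0.127 and 0.14 without WT CD replicate 1 or 2. Trp53inp1 on CD was -0.016 with protein-coding genes only. In HoipA-KO the diet difference was 0.040 for Trp53, 0.0048 for Ccng1 and 0.036 for Sesn2 with library size in place of TMM, and 0.010 for Trp53 without the 3 libraries. Leaving out each library in turn gave -0.785 to 0.577 for Cdkn2b and -0.031 to 0.21 for Trp53inp1 on CD, and -0.278 to 3.32 for Gdf15 and -0.102 to 0.411 for Sesn2 under HFD in WT. The interaction of Sesn2 was -0.509 to 0.0396. In HoipA-KO the diet gave -0.118 to 0.156 for Cdkn1a, -0.308 to 0.0251 for Trp53inp1, -0.275 to 0.0778 for Mdm2, -0.227 to 0.119 for Ccng1, -0.153 to 0.0192 for Trp53 and -0.132 to 0.021 for Sesn2.

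Over all groups, libraries with the same number did not deviate together (18 pairs, median r 0.0387, range -0.313 to 0.506), except between the diets in HoipA-KO. With a replicate block, 6, 3, 2, 0 and 1 genes were called in the 5 comparisons. Trp53 on HFD passed (edgeR adjusted p = 0.0439) and Ccng1 under HFD in WT did not (0.0843). In the comparisons of the other groups the numbers are shared without pairing, and the block changed no other call of the 9 genes. With 3 pools a group and 2 in WT CD, a difference that was not called may still be present.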
